A study of Mus musculus with 22 samples.

Results

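The 32 genes described here encode proteins of the cardiac sarcomere, of the Z-disc that joins one sarcomere to the next, and of the links from the Z-disc to the cell membrane. They were given as a list of symbols, and all 32 were found among the 30735 genes of the deposited tables. Left ventricular RNA of FVB mice aged 3 to 5 months had been sequenced in 22 libraries. The mice were VCP TG, which carry a transgene of the valosin-containing protein VCP, or wild type (WT). They had either TAC, a band tied around the transverse aorta so that the left ventricle has to pump against high pressure, or a sham operation. There were 3 libraries of VCP TG and 4 of WT at 2 weeks TAC, 4 of VCP TG and 4 of WT after sham surgery, and 3 of VCP TG and 4 of WT at 5 weeks TAC. The labels do not name the promoter that drives the transgene or the animal behind each library, so p-values measure the spread between libraries. The series asks how VCP bears on hypertrophy and dysfunction of the loaded heart.

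A sarcomere shortens when thick filaments of myosin pull on thin filaments of actin. Tropomyosin and the troponin complex on the thin filament let calcium switch this pull on and off, titin spans from the Z-disc to the M-band and acts as a spring, and α-actinin anchors thin filaments in the Z-disc. Many Z-disc and costamere proteins also sense stretch, and mutations in the human genes for several of these proteins cause cardiomyopathy.

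Values are TPM, a relative transcript abundance, which account for transcript length but record no read number, so the depth behind each value is unknown. Mitochondrially encoded transcripts took 27.9% to 72.9% of TPM in a library, and the highest share was in VCP TG sham 4. Vcp stood at 135, 125 and 151 TPM in VCP TG 2 weeks TAC, 119, 48.2, 47.7 and 50.3 TPM in WT 2 weeks TAC, 89.1, 186, 156 and 73.5 TPM in VCP TG sham, 62.9, 82.6, 57.2 and 45.7 TPM in WT sham, 118, 108 and 39.1 TPM in VCP TG 5 weeks TAC and 62.2, 123, 107 and 47.7 TPM in WT 5 weeks TAC. After rescaling to named nuclear protein-coding genes, 5 libraries lay with the other genotype across the widest gap in Vcp: those labelled WT 2 weeks TAC 1, VCP TG sham 1, WT 5 weeks TAC 2 and 3, and VCP TG 5 weeks TAC 3. Groups follow the labels throughout. Myl7, the atrial myosin light chain, exceeded 300 TPM in VCP TG 2 weeks TAC 2, in the library labelled WT 2 weeks TAC 1, and in VCP TG sham 3 and 4. The 8 ventricular myocyte markers summed to 8623 to 21847 TPM per library, against 4.54 to 30.7 TPM for 10 skeletal muscle markers.

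In WT sham hearts thin filament and myosin light chain genes held the highest levels of the list. Tnnt2, cardiac troponin T, which ties the troponin complex to tropomyosin, averaged 6313 ± 598 TPM and ranked 17 among all genes (SD, n = 4). Myl2, the regulatory light chain of ventricular myosin, averaged 5462 ± 1219.8 TPM. Tnni3, the inhibitory troponin, averaged 3987 ± 519 TPM, and Tpm1, α-tropomyosin, 3852 ± 647 TPM. These 4 overlapped with their neighbours in the order, and Tpm1 lay above the next gene, Ttn, in every WT sham library.

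Ttn averaged 2352 ± 347 TPM, Myl3, the essential light chain, 1867 ± 577 TPM, and Tnnc1, the calcium-binding troponin, 1364 ± 102 TPM (SD, n = 4). The next gene, Tcap, which encodes telethonin, a cap that binds the Z-disc end of titin, averaged 725 ± 210.1 TPM and did not overlap with Tnnc1. Below it came Myoz2, a Z-disc binder of calcineurin, at 594 ± 137 TPM, and Actn2, sarcomeric α-actinin, at 525 ± 64.8 TPM. At the low end, Pdlim3, a PDZ-LIM protein, averaged 14.0 ± 4.40 TPM and Synm, the intermediate filament protein synemin, 2.72 ± 1.06 TPM. Of the 31 steps between neighbours in the order of mean level, 24 overlapped.

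**Figure D1:**
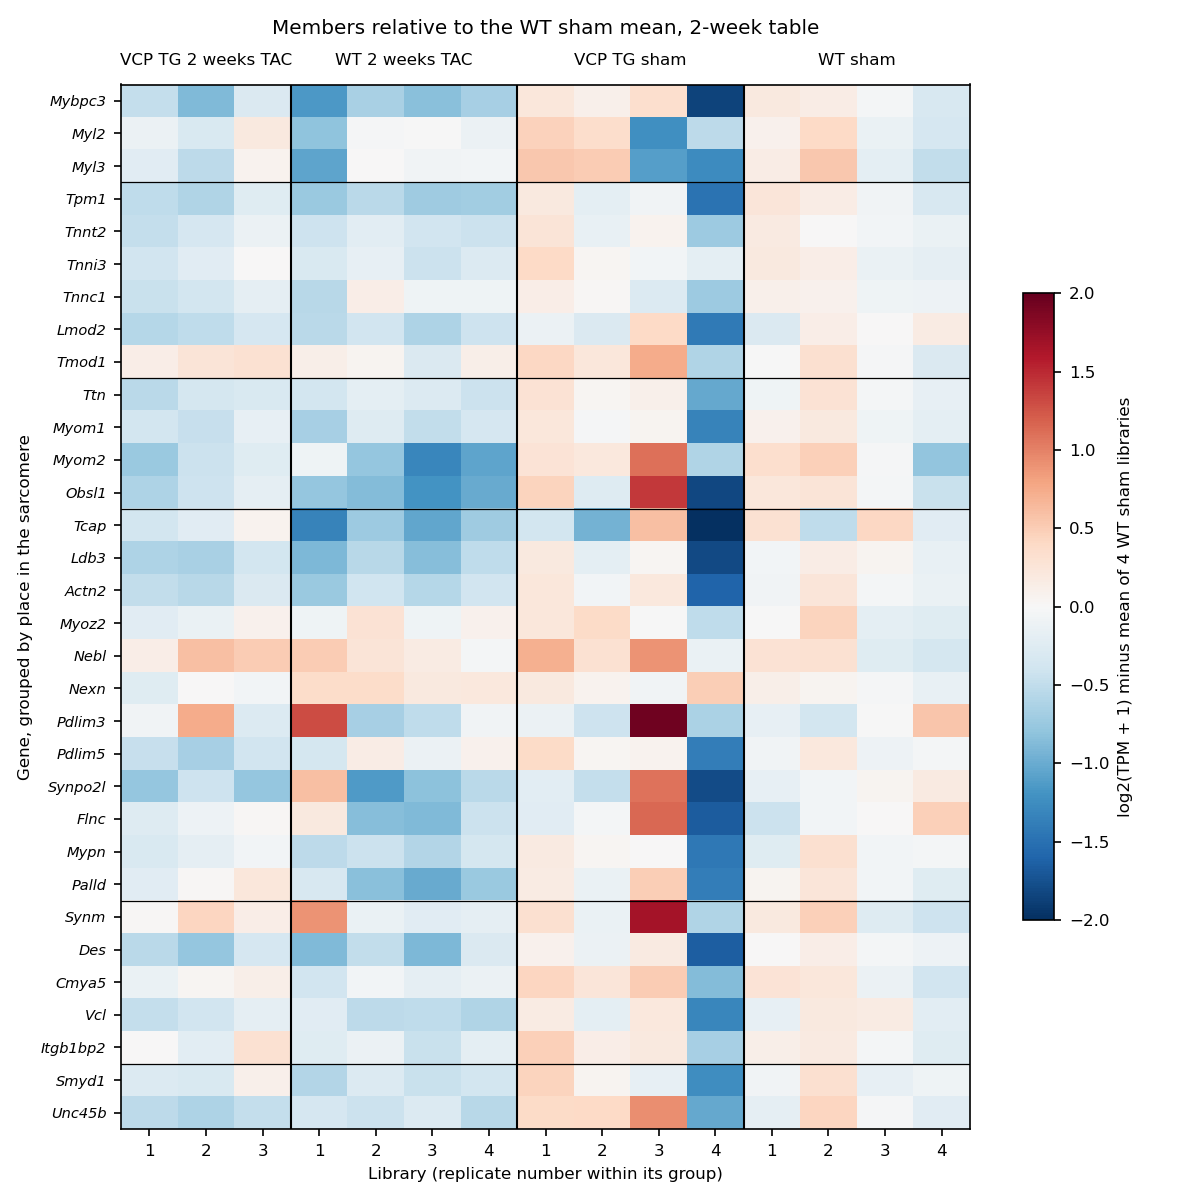
Level of each of the 32 genes in each library of the 2-week table, as log2(TPM + 1) minus its mean over the 4 WT sham libraries (blue lower, red higher, colours stop at -2 and 2). Most rows are blue in the WT 2 weeks TAC columns, nearly all are blue in VCP TG sham 4, and Pdlim3, Synm, Synpo2l, Flnc and Obsl1 are red in VCP TG sham 3.

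Summed over the list, the genes held 23071, 23211 and 28713 TPM in VCP TG 2 weeks TAC, 20443, 26256, 23659.7 and 23926 TPM in WT 2 weeks TAC, 36890.3, 31038, 27260.5 and 17335 TPM in VCP TG sham, 32610.5, 34397, 28285 and 25526 TPM in WT sham, 25160.1, 26566 and 22924 TPM in VCP TG 5 weeks TAC and 27151, 25846, 25666 and 24577 TPM in WT 5 weeks TAC. VCP TG sham spanned the widest range of any group, with the library labelled VCP TG sham 1 the highest of all and VCP TG sham 4 the lowest. Because mitochondrial and predicted genes take different shares of each library, the sum was also taken as a share of named nuclear protein-coding transcripts. That share was 8.08% to 9.36% in VCP TG 2 weeks TAC, 6.78% to 8.74% in WT 2 weeks TAC, 7.50% to 9.70% in VCP TG sham and 9.27% to 10.3% in WT sham. WT 2 weeks TAC and WT sham did not overlap on this scale. At 5 weeks TAC it was 9.59% to 10.3% in VCP TG and 8.57% to 10.9% in WT. Levels at 5 weeks come from a table made separately and were not tested against those at 2 weeks.

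TAC against sham in WT hearts asks how pressure load moved these genes at 2 weeks. With all 4 groups of the 2-week table in 1 fit, no gene of the list passed (limma, Benjamini-Hochberg adjustment over 15540 genes, threshold 0.05), and 0% of all genes passed. At an unadjusted p under 0.05 there were 7 of the 32 genes and 11.4% of all genes. In all, 27 of 32 genes had a log2 fold change of TPM + 1 below 0. Their median was -0.41, against -0.13 for all genes tested, a gap of -0.28. The gap was -0.27 in either rescaling to nuclear protein-coding genes and -0.35 after quantile normalization. In 16 of 32 genes every WT 2 weeks TAC library lay below every WT sham library, which held for 13.7% of all genes, and in 1, Nexn, every one lay above, as in 2.48% of all genes.

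The fit of the 8 WT libraries alone, which leaves out the wide spread of VCP TG sham, called 6 genes of the list, all lower after TAC. They were Tcap, Mybpc3, Ldb3, Tpm1, Obsl1 and Palld, and 6.31% of 13709 genes were called lower in that fit. The p-values of the next paragraphs are from this fit unless said otherwise, and each log2 fold change is the same in both. In the 4-group fit without VCP TG sham 4, Mybpc3, Ldb3, Tpm1, Palld and Des passed. The composition of the libraries also separated these groups. Transcripts not in the annotation took 4.21% to 8.80% of TPM in WT 2 weeks TAC and 11.7% to 15.4% in WT sham, and the predicted gene Gm10800 0.941% to 2.63% in WT 2 weeks TAC and 0.192% to 0.688% in WT sham. Their part in the result was not tested. In bulk tissue, fewer myocytes and less RNA per myocyte cannot be told apart. Each list of 8 markers of another cell type was summed per library. Fibroblast markers summed to 328 to 905 TPM in WT 2 weeks TAC and 311 to 520 TPM in WT sham. Macrophage markers summed to 80.0 to 225 TPM in WT 2 weeks TAC and 70.5 to 109 TPM in WT sham, and endothelial markers to 327 to 385 TPM in WT 2 weeks TAC and 430 to 668 TPM in WT sham. Endothelial sums were lower in every WT 2 weeks TAC library, the fibroblast and macrophage sums overlapped, and their part in the result was not tested.

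Among thick filament genes, Mybpc3, which encodes cardiac myosin-binding protein C, a brake on myosin heads, stood out (ENSMUSG00000002100, chromosome 2, 91118144 to 91136516, plus strand, GRCm38). It held 178, 251, 222 and 249 TPM in WT 2 weeks TAC, against 455, 439.5, 387 and 317 TPM in WT sham. All TAC libraries lay below all sham libraries. Mybpc3 fell by 0.83 on the log2 scale (-0.83 ± 0.19, SE; limma adjusted p = 0.0313). The light chains did not pass. Myl2 averaged 4651 ± 1066 TPM in WT 2 weeks TAC and 5462 ± 1219.8 TPM in WT sham, and Myl3 1528 ± 442 TPM and 1867 ± 577 TPM in the same groups (SD, n = 4 each). Both overlapped between the groups.

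On the thin filament, Tpm1 (ENSMUSG00000032366, chromosome 9, 67022590 to 67049406, minus strand) held 2287, 2608, 2322 and 2354 TPM in WT 2 weeks TAC, against 4498, 4227, 3637 and 3045 TPM in WT sham. The groups did not overlap, and Tpm1 fell (-0.67 ± 0.18; limma adjusted p = 0.045). Tnnt2 and Lmod2, a leiomodin that lets thin filaments grow at their free ends, also did not overlap: Tnnt2 averaged 4925 ± 359 TPM in WT 2 weeks TAC and 6313 ± 598 TPM in WT sham, and Lmod2 253 ± 18.3 TPM and 357 ± 48.9 TPM in the same groups. Neither passed. Tmod1, the cap of those same ends, averaged 64.8 ± 8.11 TPM in WT 2 weeks TAC and 65.2 ± 11.7 TPM in WT sham.

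In titin and the M-band, Obsl1, which encodes a cytoskeletal adaptor that binds titin and myomesin, had the smallest p of the list (ENSMUSG00000026211, chromosome 1, 75479310 to 75506452, minus strand). It held 14.6, 13.6, 10.6 and 12.3 TPM in WT 2 weeks TAC, against 30.4, 31.1, 24.9 and 18.6 TPM in WT sham, without overlap. It fell by 0.96 on the log2 scale (-0.96 ± 0.19; limma adjusted p = 0.0213). Myom2, one of the myomesins that tie thick filaments together in the M-band, held 219, 136, 93.8 and 112 TPM in WT 2 weeks TAC, against 296, 326, 229 and 134 TPM in WT sham. WT sham 4 lay among the TAC libraries while the other 3 sham libraries lay above them all, and Myom2 did not pass (-0.81 ± 0.32; limma adjusted p = 0.135). Ttn averaged 1877 ± 131 TPM in WT 2 weeks TAC and 2352 ± 347 TPM in WT sham, and Myom1 134 ± 16.8 TPM and 182 ± 22.5 TPM. Neither Ttn nor Myom1 overlapped between the groups and neither passed.

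Among Z-disc genes, 3 of 12 passed. Tcap (ENSMUSG00000007877, chromosome 11, 98383811 to 98384953, plus strand) held 278, 422, 342 and 427 TPM in WT 2 weeks TAC, against 868, 495, 935 and 602 TPM in WT sham. Ldb3, a PDZ-LIM protein that binds α-actinin (ENSMUSG00000021798, chromosome 14, 34526603 to 34588682, minus strand), held 188, 239.8, 194 and 248 TPM in WT 2 weeks TAC, against 338, 391, 364 and 317 TPM in WT sham. Palld, which encodes the actin cross-linker palladin (ENSMUSG00000058056, chromosome 8, 61511433 to 61902690, minus strand), held 57.8, 40.1, 35.6 and 43.1 TPM in WT 2 weeks TAC, against 75.7, 85.6, 69.9 and 61.2 TPM in WT sham. None of the 3 overlapped between the groups, and Palld was highest of its TAC group in the library labelled WT 2 weeks TAC 1. Tcap fell by 0.95 (-0.95 ± 0.24; limma adjusted p = 0.0419), Ldb3 by 0.70 (-0.70 ± 0.17; limma adjusted p = 0.0389) and Palld by 0.73 (-0.73 ± 0.19; limma adjusted p = 0.0424).

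The other 9 Z-disc genes did not pass in WT hearts. Actn2 averaged 364 ± 42.1 TPM in WT 2 weeks TAC and 525 ± 64.8 TPM in WT sham, and Mypn, which encodes myopalladin, 27.2 ± 1.97 TPM and 38.4 ± 6.78 TPM, each without overlap. Nexn, which encodes the actin-binding nexilin, was the gene with every TAC library above every sham library: 305, 306, 272 and 274 TPM in WT 2 weeks TAC, against 256, 247, 234 and 213 TPM in WT sham. Myoz2, Nebl, which encodes nebulette, and the PDZ-LIM gene Pdlim5 averaged 608 ± 77.5, 129 ± 20.6 and 216 ± 32.6 TPM in WT 2 weeks TAC, against 594 ± 137, 111 ± 26.0 and 224 ± 22.6 TPM in WT sham, all with overlap. Pdlim3, Synpo2l, a partner of α-actinin, and Flnc, the gene of filamin C, overlapped too. Pdlim3 and Flnc spread widely among WT 2 weeks TAC libraries, at 8.13 to 34.8 and 42.4 to 90.3 TPM, against 10.2 to 20.3 and 58.5 to 110.2 TPM in WT sham.

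Of the intermediate filament and costamere genes, Des, which encodes desmin, held 205, 269.9, 204 and 309.6 TPM in WT 2 weeks TAC, against 382, 418, 368 and 354 TPM in WT sham. The groups did not overlap and Des did not pass. Vcl, the gene of vinculin, averaged 27.4 ± 3.35 TPM in WT 2 weeks TAC and 38.2 ± 5.65 TPM in WT sham, without overlap and without passing. Cmya5, which encodes the desmin partner myospryn, Itgb1bp2 and Synm overlapped between the groups. Smyd1, the gene of a lysine methyltransferase that assists myosin assembly, and Unc45b, the gene of a myosin chaperone, held 54.6 to 68.2 and 28.4 to 34.9 TPM in WT 2 weeks TAC, against 73.6 to 103 and 35.9 to 57.6 TPM in WT sham. Both were without overlap and neither passed.

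**Figure D2:**
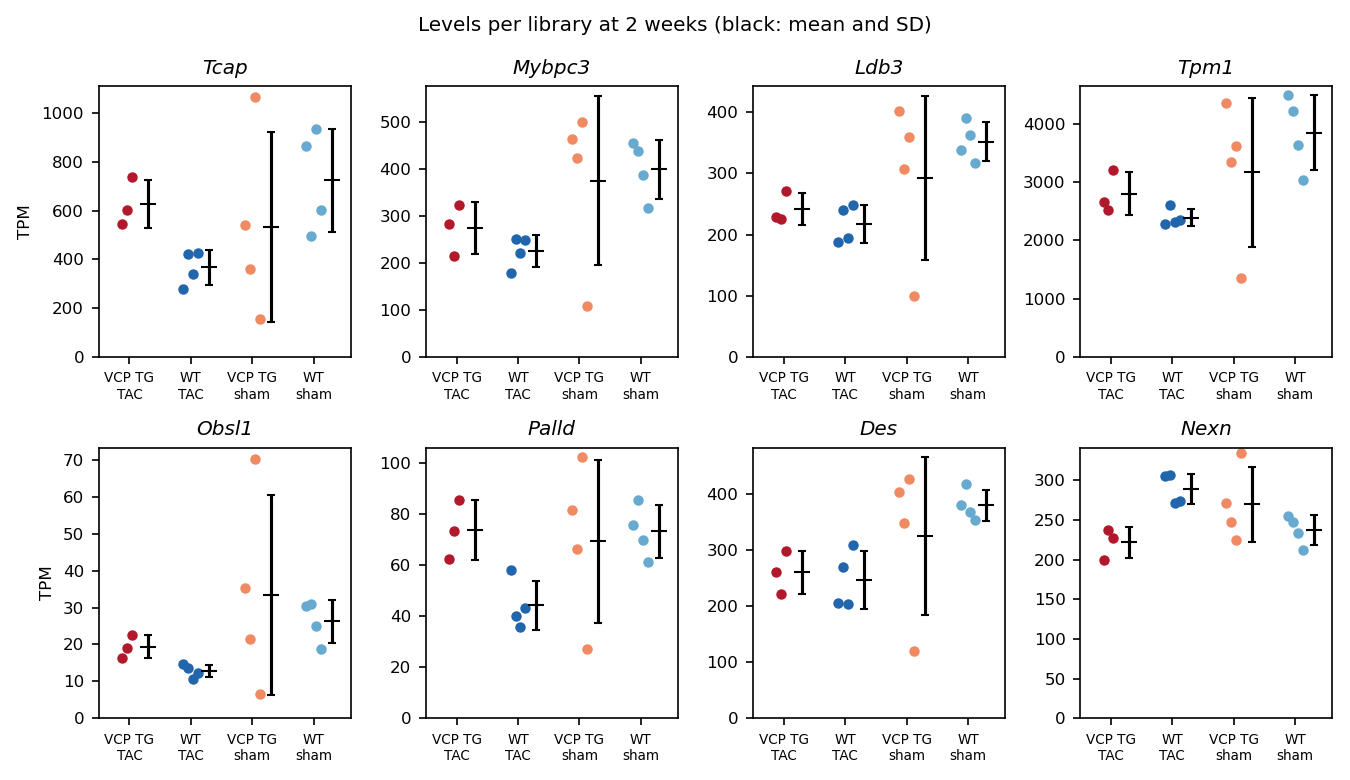
TPM of 8 genes in each library of the 2-week table, with VCP TG left of WT and TAC left of sham, and the mean and SD in black beside the points. In Tcap, Mybpc3, Ldb3, Tpm1, Obsl1, Palld and Des all 4 WT 2 weeks TAC points lie under all 4 WT sham points, and in Nexn above them; VCP TG sham has the widest SD in all 8 genes.

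The calls of these 6 genes depend on the libraries and on the filter. With no filter on low values, 0 genes of the list passed in the fit of WT libraries and 0.549% of all genes did. Without the library labelled WT 2 weeks TAC 1, which held 1546 TPM of Myl7 and a Vcp level of the other genotype, the fit of WT libraries called Obsl1, Palld and Synpo2l. That fit called 3.14% of all genes. Leaving out 1 WT library at a time gave 0 to 9 called genes. It was 0 without WT 2 weeks TAC 2, 3 or 4 or without WT sham 3. It was 1 without WT sham 1 (5.07% of all genes), 3 without WT sham 2 (5.82%) and 9 without WT sham 4 (15.9%). The sign of each of the 6 was the same in every one of these fits. The lack of overlap between the groups fixed this in advance, so it says nothing of how stable the calls are. With the replicate number as a block, Mybpc3 and Obsl1 passed, beside 4.81% of all genes.

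RefSeq promoter windows, the 250 bases before a start site on GRCm38.p6, were at hand for 28 of the 32 genes, in 39 windows. They were searched on both strands for a MEF2 site, a CArG box (the site of SRF), a TATAAA box, the M-CAT core CATTCC, the ERR site AAGGTCA and the GATA site GATAAG. Shown here are windows of the genes that fell in WT hearts, apart from Tcap, with each match in capitals. Mybpc3 (chr2:91117894-91118143, plus strand) holds a MEF2 site 90 to 81 bases before the start and GATAAG 60 to 55 bases before it. Ldb3 (chr14:34588682-34588931, minus strand) holds a CArG box 35 to 26 bases before the start, which also lies in its other, overlapping window. Tpm1 (chr9:67049214-67049463, minus strand) holds CATTCC on the opposite strand 56 to 51 bases before the start. Palld (chr8:61591140-61591389, minus strand), 1 of 3 windows of that gene, holds TATAAA 31 to 26 bases before the start. Obsl1 (chr1:75506453-75506702, minus strand) held none of the 6.
Mybpc3: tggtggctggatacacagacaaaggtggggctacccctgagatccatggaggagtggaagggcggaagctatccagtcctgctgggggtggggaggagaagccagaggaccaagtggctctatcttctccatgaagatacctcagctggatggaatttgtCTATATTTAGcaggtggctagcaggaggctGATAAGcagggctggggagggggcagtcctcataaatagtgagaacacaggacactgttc
Ldb3: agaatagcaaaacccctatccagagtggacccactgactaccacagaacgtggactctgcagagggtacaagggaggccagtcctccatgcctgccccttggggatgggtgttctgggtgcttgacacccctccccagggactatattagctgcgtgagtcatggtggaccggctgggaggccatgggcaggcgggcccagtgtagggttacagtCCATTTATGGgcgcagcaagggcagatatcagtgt
Tpm1: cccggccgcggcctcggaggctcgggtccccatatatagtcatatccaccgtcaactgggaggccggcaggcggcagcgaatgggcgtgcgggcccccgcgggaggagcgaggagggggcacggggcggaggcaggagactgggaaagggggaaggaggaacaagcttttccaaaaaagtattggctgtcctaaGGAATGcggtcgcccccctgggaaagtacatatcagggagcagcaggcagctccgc
Palld: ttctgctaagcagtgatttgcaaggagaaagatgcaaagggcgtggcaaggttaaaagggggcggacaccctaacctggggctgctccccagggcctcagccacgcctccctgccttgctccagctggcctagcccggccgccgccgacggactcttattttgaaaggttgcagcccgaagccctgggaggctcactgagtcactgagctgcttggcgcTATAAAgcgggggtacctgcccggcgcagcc
Obsl1: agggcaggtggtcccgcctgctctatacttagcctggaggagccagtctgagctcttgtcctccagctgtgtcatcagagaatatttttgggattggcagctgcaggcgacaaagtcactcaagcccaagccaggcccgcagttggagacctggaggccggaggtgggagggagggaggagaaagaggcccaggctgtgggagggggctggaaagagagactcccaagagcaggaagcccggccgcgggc

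Over the 28 genes with a window, the CArG box was found in 5 (17.9%: Ldb3, Myl3, Myom1, Nebl and Vcl), against 1.62% of 27025 genes with a window. The MEF2 site was found in 4 (14.3%: Mybpc3, Myoz2, Synpo2l and Ttn), against 3.42% of all. CATTCC was in 11 genes (39.3%), against 14.4%, TATAAA in 5 (17.9%), against 14.3%, GATAAG in 4 (14.3%), against 7.60%, and AAGGTCA in 0, against 4.70%. These are matches of letters and say nothing of binding. No single motif was common to the genes that fell, and genes that did not pass in WT hearts, Myl3 and Nebl among them, held a CArG box and CATTCC.

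Ratios between related genes do not depend on how a library is scaled. The ratio of Ldb3 to Pdlim5, both PDZ-LIM genes of the Z-disc, was 1.08, 0.972, 0.943 and 1.05 in WT 2 weeks TAC, against 1.59, 1.52, 1.75 and 1.46 in WT sham. Every TAC value was lower, by 0.64 on the log2 scale (-0.64; exact two-sided permutation p = 0.0286, the smallest that 4 against 4 allows; n = 4 each). The ratio of Lmod2 to Tmod1, which act at the same filament ends, was 3.51, 4.04, 4.37 and 3.79 in WT 2 weeks TAC, against 4.53, 4.78, 5.59 and 7.56 in WT sham (-0.49; exact permutation p = 0.0286, n = 4 each). Of 40 such tests over 8 ratios, 3 had p under 0.05 and 0 passed Benjamini-Hochberg adjustment (adjusted p = 0.327). That outcome was fixed in advance. The smallest exact permutation p is 0.0286 for 4 against 4 and 0.0571 for 3 against 4, too large for any ratio to pass. Only tests of 4 against 4 could reach p under 0.05. The ratios of Myl2 to Myl3, Myom2 to Myom1, Mypn to Palld, Pdlim3 to Pdlim5, Tnnt2 to Tnni3 and Tcap to Ttn overlapped between the WT groups.

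Among 39 other sarcomere and Z-disc genes, 38 were tested and their median log2 fold change was -0.43 in the fit of WT libraries, against -0.16 for all genes. There 16 of the 38 fell and 0 rose, where 6.31% of all genes were called lower and 0.722% higher. They include Myh6 (-0.72 ± 0.17, limma adjusted p = 0.0325) and Myh7 (-1.12 ± 0.18, limma adjusted p = 0.0136), the adult and the fetal myosin heavy chain of the mouse ventricle. Myh7 held 174, 232, 174 and 173 TPM in WT 2 weeks TAC, against 404, 396, 489 and 356 TPM in WT sham. Speg (-1.25 ± 0.23, limma adjusted p = 0.0188), a kinase of striated muscle, also fell. Others that fell were Jup, Lims2, Ablim1, Bag3, Fhod3, Alpk3, Nrap, Tln2, Trim55, Trim54, Ankrd23 and Myh7b. Of 16 factors known to act on sarcomere genes, Nkx2-5 (-0.78 ± 0.20, limma adjusted p = 0.0413) and the splicing factor Rbm20 (-0.88 ± 0.17, limma adjusted p = 0.0206) fell, again beside 6.31% of all genes. Of 15 isoforms of skeletal, atrial or fetal muscle tested in that fit, 0 passed.

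TAC against sham in VCP TG hearts asks the same question under the transgene. No gene of the list passed in the 4-group fit, where 0.772% of all genes did, and 24 of 32 were below 0. Their median was -0.11, against 0.02 for all genes. No gene of the list separated the groups, and 4.02% of all genes did. At an unadjusted p under 0.05 there was 1 of the 32 genes, Unc45b, and 8.77% of all genes. After rescaling to all nuclear protein-coding genes the median was -0.40, against -0.23 for all genes. After rescaling to named ones it was -0.0093, with 17 genes below and 15 above 0, against 0.11 for all genes, and without VCP TG sham 4, on the scale as deposited, it was -0.39. Unc45b, a chaperone that folds the myosin head, held 29.4, 27.5 and 30.2 TPM in VCP TG 2 weeks TAC, against 55.6, 56.5, 82.1 and 20.4 TPM in VCP TG sham. The 3 TAC libraries lay close together, and VCP TG sham 4 alone lay below them. Unc45b stood at -0.71 ± 0.34 (limma adjusted p = 0.554). It passed without VCP TG sham 4 (-1.11 ± 0.20, limma adjusted p = 0.0431) and without the libraries rich in Myl7 (-0.89 ± 0.23, limma adjusted p = 0.0422).

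Myom2 held 139, 172 and 198 TPM in VCP TG 2 weeks TAC, against 281, 269, 504 and 154 TPM in VCP TG sham (-0.72 ± 0.38, limma adjusted p = 0.69). Its ratio to Myom1 was 1.00, 1.32 and 1.22 in VCP TG 2 weeks TAC, against 1.33, 1.51, 2.68 and 2.17 in VCP TG sham. It was lower in every TAC library (-0.65, exact permutation p = 0.0571, the smallest that 3 against 4 allows, adjusted p = 0.327). The gap was narrow, from 1.324 in VCP TG 2 weeks TAC 2 to 1.329 in the library labelled VCP TG sham 1. Tcap pointed the other way, at 544, 602 and 739 TPM in VCP TG 2 weeks TAC, against 543, 362, 1066 and 155 TPM in VCP TG sham (0.55 ± 0.44, limma adjusted p = 1). VCP TG sham 3 lay above all TAC libraries and the other 3 sham libraries below them. Tnni3 (-0.25 ± 0.23) and Nexn (-0.27 ± 0.23) were the next genes by size of their moderated t, and neither passed (limma adjusted p = 1 for both). Tpm1 averaged 2802 ± 369.9 TPM in VCP TG 2 weeks TAC and 3172 ± 1279.7 TPM in VCP TG sham, Mybpc3 274 ± 55.4 TPM and 375 ± 180.0 TPM, and Ldb3 242 ± 25.9 TPM and 292 ± 134 TPM (SD, n = 3 and 4).

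**Figure D3:**
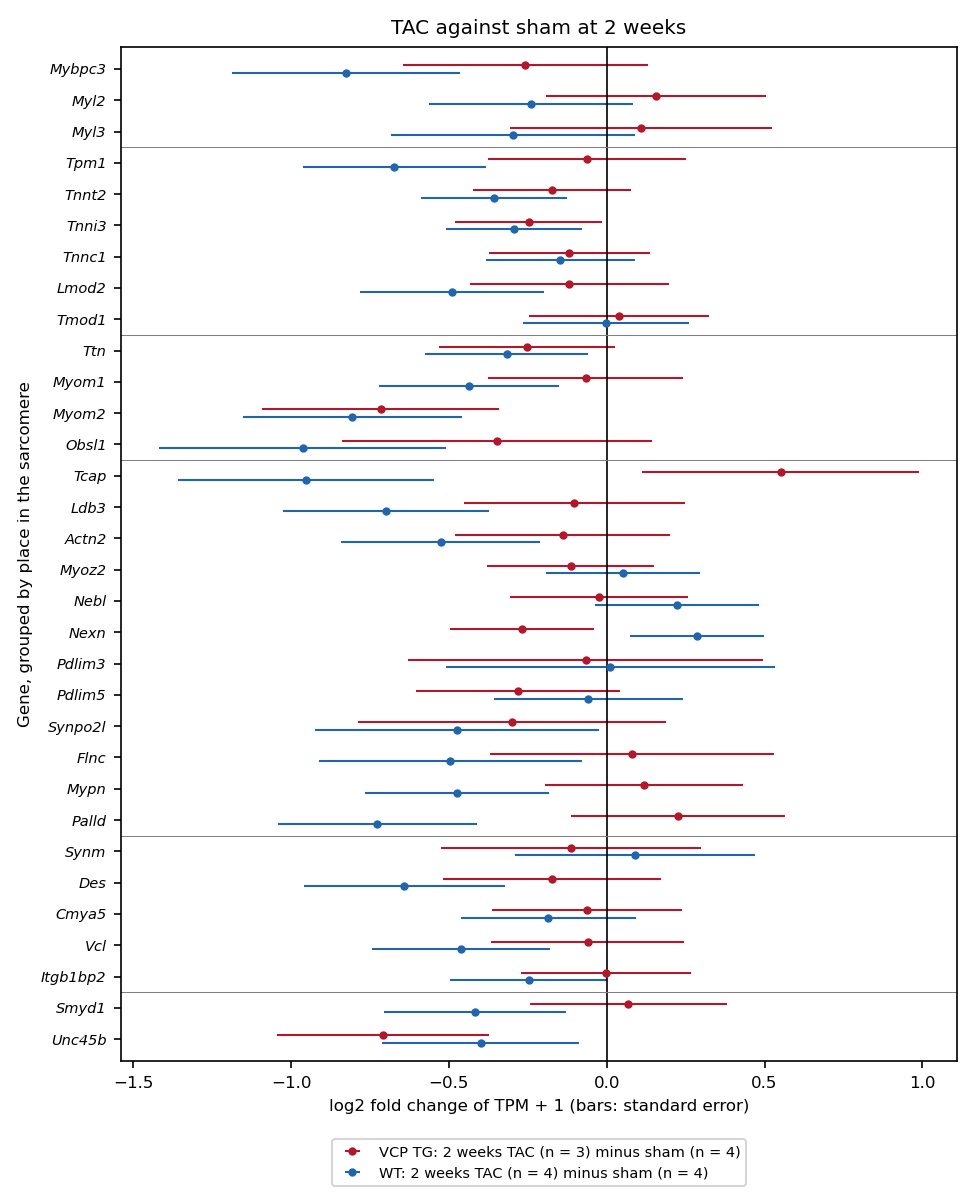
Log2 fold change of TPM + 1 with its standard error for each of the 32 genes, 2 weeks TAC minus sham, in VCP TG (red) and in WT (blue), from the fit of all 4 groups. WT points lie left of 0 in 27 genes with a median of -0.41, VCP TG points lie left of 0 in 24 genes with a median of -0.11, and the error bars of the genotypes overlap in most genes.

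The difference between the genotypes in this response was tested directly. No gene of the list passed in a fit that called 0.00644% of all genes, and at an unadjusted p under 0.05 there was 1 of the 32 genes, Tcap, and 5.01% of all genes. Tcap differed by 1.50 ± 0.60 on the log2 scale (limma adjusted p = 0.872), Palld by 0.95 ± 0.46, Nexn by -0.56 ± 0.31, Tpm1 by 0.61 ± 0.43 and Mypn by 0.59 ± 0.43 (limma adjusted p = 0.872 for each). The median over the list was 0.31, against 0.22 for all genes, and was -0.03 after rescaling to all nuclear protein-coding genes, a total in which predicted genes weigh heavily, and -0.0019 without VCP TG sham 4.

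VCP TG against WT after sham surgery showed no gene of the list past the threshold and 0% of all genes. At an unadjusted p under 0.05 there were 0 of the 32 genes and 3.96% of all genes. In no gene of the list did the groups separate, and in 1.04% of all genes they did. In the list 21 of 32 genes were below 0, with a median of -0.22 against -0.01 for all genes. VCP TG sham 4 held the lowest value of its group in 30 of 32 genes (all but Myl2 and Nexn), and without it the median of the list was 0.13. Tcap held 543, 362, 1066 and 155 TPM in VCP TG sham, against 868, 495, 935 and 602 TPM in WT sham (-0.72 ± 0.41, limma adjusted p = 1). Nebl held 179, 134, 204 and 99.4 TPM in VCP TG sham, against 133, 135, 92.5 and 85.8 TPM in WT sham (0.44 ± 0.26, limma adjusted p = 1). It was the gene of the list furthest above 0, and VCP TG sham 2 and 4 reached into the WT range.

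Ldb3 averaged 292 ± 134 TPM in VCP TG sham and 352 ± 31.8 TPM in WT sham, Tpm1 3172 ± 1279.7 TPM and 3852 ± 647 TPM, and Lmod2 304 ± 137 TPM and 357 ± 48.9 TPM (SD, n = 4 each; limma adjusted p = 1 for each). Without the libraries rich in Myl7 the log2 difference was 0.0028 for Ldb3 and 0.0028 for Tpm1. The ratio of Lmod2 to Tmod1 was 3.82, 3.81, 4.28 and 3.16 in VCP TG sham, against 4.53, 4.78, 5.59 and 7.56 in WT sham. Every VCP TG value was lower (-0.55; exact permutation p = 0.0286, n = 4 each; adjusted p = 0.327), VCP TG sham 4 included.

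VCP TG against WT at 2 weeks TAC placed 25 of 32 genes above 0, with a median of 0.12 against 0.16 for all genes. After quantile normalization 17 were above 0, with a median of 0.02 against -0.05 for all genes. After rescaling to all nuclear protein-coding genes 3 were above 0, with a median of -0.24 against -0.15. No gene of the list passed, and 0.0901% of all genes did. At an unadjusted p under 0.05 there was 1 of the 32 genes, Palld, and 9.58% of all genes. In 5 genes every VCP TG library lay above every WT library (Tcap, Obsl1, Tmod1, Mypn and Palld), as in 19% of all genes, and in 2 every one lay below (Nexn and Pdlim5), as in 2.78%. Tcap held 544, 602 and 739 TPM in VCP TG 2 weeks TAC, against 278, 422, 342 and 427 TPM in WT 2 weeks TAC (0.78 ± 0.44, limma adjusted p = 0.665). Palld held 62.2, 73.4 and 85.4 TPM in VCP TG 2 weeks TAC, against 57.8, 40.1, 35.6 and 43.1 TPM in WT 2 weeks TAC (0.74 ± 0.34, limma adjusted p = 0.48). Palld passed without the libraries rich in Myl7 (0.87 ± 0.21, limma adjusted p = 0.0357), which leaves 2 VCP TG and 3 WT libraries.

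Obsl1 held 16.4, 19.1 and 22.6 TPM in VCP TG 2 weeks TAC, against 14.6, 13.6, 10.6 and 12.3 TPM in WT 2 weeks TAC (0.56 ± 0.49, limma adjusted p = 0.939). Nexn was on the lower side, at 200.2, 238 and 227 TPM in VCP TG 2 weeks TAC, against 305, 306, 272 and 274 TPM in WT 2 weeks TAC (-0.38 ± 0.23, limma adjusted p = 0.706). So was Pdlim5, at 162, 140.2 and 171 TPM in VCP TG 2 weeks TAC, against 174, 247, 206 and 236 TPM in WT 2 weeks TAC (-0.44 ± 0.32, limma adjusted p = 0.859), where the lowest WT value was close to the highest VCP TG value. The ratio of Ldb3 to Pdlim5 was 1.41, 1.60 and 1.59 in VCP TG 2 weeks TAC, against 1.08, 0.972, 0.943 and 1.05 in WT 2 weeks TAC (0.60; exact permutation p = 0.0571, the smallest the design allows). The ratio of Tcap to Ttn was 0.339, 0.331 and 0.392 in VCP TG 2 weeks TAC, against 0.153, 0.208, 0.177 and 0.247 in WT 2 weeks TAC (0.87; exact permutation p = 0.0571). The ratio of Lmod2 to Tmod1 was lower, at 3.37, 3.21 and 3.49 in VCP TG 2 weeks TAC, against 3.51, 4.04, 4.37 and 3.79 in WT 2 weeks TAC (-0.22; exact permutation p = 0.0571). Its gap was narrow, from 3.49 to 3.51. Each of these ratios separated the groups (adjusted p = 0.327 for each, permutation tests). With a weight for each library, Tcap, Obsl1 and Palld passed as higher and Nexn and Pdlim5 as lower, in a fit that called 16.8% of all genes.

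At 5 weeks TAC no gene of the list passed between VCP TG and WT, and 0.00715% of 13986 genes did. The median was -0.03, against 0.03 for all genes, with 20 of 32 genes below 0. The median turned to 0.02 after quantile normalization and to 0.08 after rescaling to named nuclear protein-coding genes. At an unadjusted p under 0.05 there was 1 of the 32 genes, Obsl1, and 4.49% of all genes. Palld was the gene in which every VCP TG library lay above every WT library, which held for 3.4% of all genes. It held 61.2, 67.5 and 58.8 TPM in VCP TG 5 weeks TAC, against 47.5, 52.9, 53.8 and 56.8 TPM in WT 5 weeks TAC. It was not among the 5 genes of the list with the largest moderated t. Obsl1 held 28.8, 29.8 and 21.4 TPM in VCP TG 5 weeks TAC, against 19.6, 14.4, 21.5 and 16.7 TPM in WT 5 weeks TAC (0.54 ± 0.20, limma adjusted p = 0.904). The library labelled VCP TG 5 weeks TAC 3 reached into the WT range.

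Tcap held 848, 1003 and 737 TPM in VCP TG 5 weeks TAC, against 341, 501, 669 and 1085 TPM in WT 5 weeks TAC (0.53 ± 0.35, limma adjusted p = 0.904), and the WT libraries spanned the VCP TG range. Nexn held 202, 212 and 197 TPM in VCP TG 5 weeks TAC, against 336, 367, 268 and 177 TPM in WT 5 weeks TAC (-0.44 ± 0.27, limma adjusted p = 0.904), where WT 5 weeks TAC 4 lay below all others. Nebl averaged 84.2 ± 9.75 TPM in VCP TG 5 weeks TAC and 103 ± 11.7 TPM in WT 5 weeks TAC. Itgb1bp2, which encodes melusin, an integrin partner of the costamere, averaged 53.9 ± 4.75 TPM in VCP TG 5 weeks TAC and 43.6 ± 5.54 TPM in WT 5 weeks TAC. Neither passed (limma adjusted p = 0.904 for each). Abundant genes overlapped, such as Ttn at 1618 ± 205 TPM in VCP TG 5 weeks TAC and 1773 ± 309 TPM in WT 5 weeks TAC, and Tnnt2 at 5501 ± 268 TPM and 5470.0 ± 472 TPM.

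**Figure D4:**
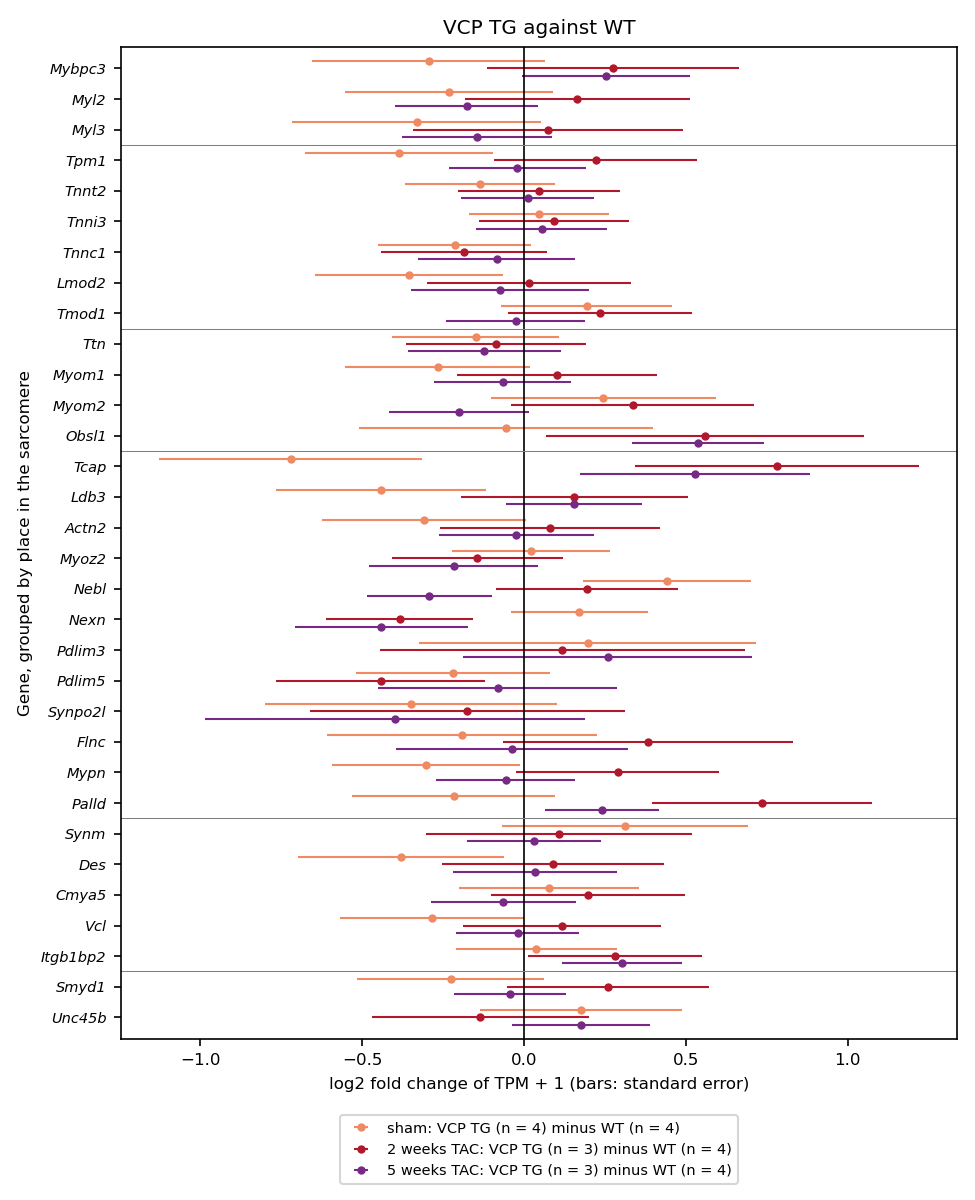
Log2 fold change of TPM + 1 with its standard error, VCP TG minus WT, for each of the 32 genes after sham surgery, at 2 weeks TAC and at 5 weeks TAC, the last from a separate table. Obsl1, Tcap and Palld lie right of 0 in both TAC comparisons and left of 0 after sham surgery, Nexn lies left of 0 in both TAC comparisons, and no point passed the test. Obsl1 and Palld lie left of 0 after sham surgery only with VCP TG sham 4 included. That library held 6.55 TPM of Obsl1 and 27.1 TPM of Palld, the lowest of its group.

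Some genes of the list stood apart in the libraries with the most atrial Myl7. Myl7 held 154, 951 and 1.39 TPM in VCP TG 2 weeks TAC, 1546, 3.34, 13.2 and 30.3 TPM in WT 2 weeks TAC, 0.756, 37.9, 2269 and 394 TPM in VCP TG sham and 9.11, 0.773, 55.6 and 4.69 TPM in WT sham. Myl2, the ventricular counterpart, held 4957, 4324 and 6158 TPM in VCP TG 2 weeks TAC, 3069, 5270.1, 5311 and 4953 TPM in WT 2 weeks TAC, 7387, 6868, 2293 and 3749 TPM in VCP TG sham and 5668, 7067, 4873 and 4238 TPM in WT sham. The lowest Myl2 of the 22 libraries was in VCP TG sham 3, and the next in the library labelled WT 2 weeks TAC 1, the libraries with the highest Myl7. Myl3 held 867, 1805, 1709 and 1730.1 TPM in WT 2 weeks TAC and 2615, 2558, 838 and 752 TPM in VCP TG sham, low in the same libraries and in VCP TG sham 4. Rescaled to named nuclear protein-coding genes, Myl2 in VCP TG sham 4 was 18615 TPM, within the 16465 to 19049 TPM of WT sham. Myl3 there was 3732 TPM, below the 5183 to 7042 TPM of WT sham. The ratio of Myl2 to Myl3 stayed between 2.68 and 3.54 in all libraries of the 2-week table but VCP TG sham 4, where it was 4.99.

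**Figure D5:**
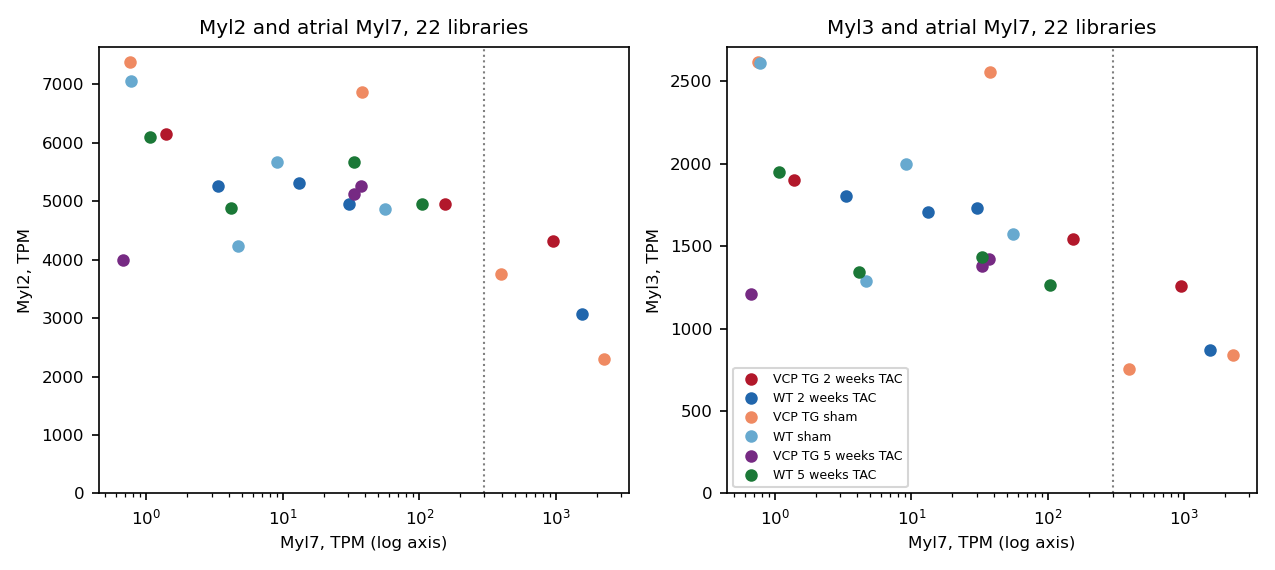
TPM of Myl2 (left) and Myl3 (right) against TPM of Myl7 (log axis) in the 22 libraries, coloured by group, with a dotted line at 300 TPM of Myl7. The libraries right of the line have 2293 to 4324 TPM of Myl2 and 752 to 1258 TPM of Myl3, low among the 22. The library labelled VCP TG 5 weeks TAC 3, left of the line, lies in the same ranges, at 3992 TPM of Myl2 and 1210 TPM of Myl3.

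Other genes were high in the 2 libraries with the most Myl7. In VCP TG sham 3 Pdlim3 held 55.3 TPM, against 8.40 to 12.4 TPM in the other 3 of its group, Synm 10.4 TPM, against 1.37 to 3.51 TPM, and Flnc 176 TPM, against 24.3 to 77.2 TPM. Synpo2l held 87.2 TPM there, against 11.1 to 34.9 TPM. The library labelled WT 2 weeks TAC 1 held 34.8 TPM of Pdlim3, 5.70 TPM of Synm and 62.1 TPM of Synpo2l, each the highest of its group. VCP TG 2 weeks TAC 2, with 951 TPM of Myl7, was highest of its group in Pdlim3, Synm and Synpo2l (23.2, 3.88 and 30.5 TPM), but not in Flnc. In VCP TG sham 4, with 394 TPM of Myl7, these 4 genes were the lowest of the group. That library was lowest in 30 of the 32 genes. Rescaled to named nuclear protein-coding genes, Pdlim3 was 41.7 TPM there, above VCP TG sham 2 at 29.5 TPM. On that scale Synm, Flnc and Synpo2l were still the lowest of the group. Tnnt2 and Ttn held 6641 and 2495 TPM in VCP TG sham 3, within the range of its group, and 3786 and 1150.2 TPM in VCP TG sham 4, the lowest of it. The part of atrial tissue in these levels was not tested.

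Some of these genes overlap another gene. Tnnc1 overlaps Nisch (at most 122 TPM) and Myom1 overlaps Myl12a (at most 496 TPM), both on the opposite strand, and Tnni3 overlaps Dnaaf3 (at most 2.31 TPM) on the same strand. Synm overlaps Ttc23 (at most 18.8 TPM), and Synm itself averaged 2.72 TPM in WT sham. Smyd1 overlaps Krcc1 (at most 26.0 TPM) and Vcl overlaps Ap3m1 (at most 16.1 TPM). These partners too lie on the opposite strand. The sources used here do not say whether reads were counted by strand. Levels of the genes named here may therefore include reads of their partners.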

How the data were processed

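The deposited tables hold TPM per gene and library, computed by the authors. Per the submitters' processing notes the tools were Trimmomatic 0.35, kallisto 0.43.1, STAR 2.5.4b and DESeq2 on GRCm38, and the sources do not say which of them made the tables. TPM sums to 1000000 per library, so a large share of mitochondrial or predicted transcripts lowers all other values, and read depth is unknown. The tables for 2 weeks and 5 weeks were never tested against each other. Gene names came from GENCODE M21 (29995 of 30735 IDs found). The result of 1 gene that is counted in a list is not reported here.

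Values were taken as log2(TPM + 1), which understates the change of low genes. Genes that reached 1 TPM in 3 or more libraries entered limma 3.58.1 (R 4.3.3, trend, robust) and Benjamini-Hochberg adjustment over all of them, with a threshold of 0.05. All 4 groups of the 2-week table shared a fit. The fit of the 8 WT libraries alone was an alternative to it. Scripts were tested on simulated data. Ratios were tested by exact permutation (scipy 1.17.1) and figures drawn with matplotlib 3.10.9.

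The members and gene lists were chosen with earlier results of these data known. Fold changes are printed for members that passed in either fit, and in each comparison for the 5 with the largest moderated t. Same-numbered sham libraries deviated together (correlations 0.107, 0.260, 0.176 and 0.133), a pairing taken from the data alone, and in no other comparison did every same-numbered pair do so. Predicted genes distorted the planned rescaling and the planned split of libraries by Vcp, which then set 1 library apart. A rescaling to named genes was added after seeing the data, as were the ratios of Tnnt2 to Tnni3, Tcap to Ttn and Myl2 to Myl7 and the repeat of each alternative in the 8 WT libraries.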

Additional observations from a re-analysis of the deposited data

Results flagged for a closer look

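In 9 of 128 sets of 4 libraries, each for 1 gene in 1 group, 1 library stood far from the other 3. Chance flags about 1 in 20 independent sets. These sets share libraries between genes, so the count cannot be held against that rate. Mybpc3 was 216 TPM in WT 5 weeks TAC 4, against 339 to 361 TPM in the rest of its group, and Des was 223 TPM in the same library, against 374 to 395 TPM. The library labelled WT 2 weeks TAC 1 held 3069 TPM of Myl2, against 4953 to 5311 TPM, 867 TPM of Myl3, against 1709 to 1805 TPM, and 5.70 TPM of Synm, against 2.09 to 2.28 TPM. Tnnt2 was 5459.7 TPM in WT 2 weeks TAC 2, against 4692 to 4800.5 TPM, and Tmod1 was 52.8 TPM in WT 2 weeks TAC 3, against 66.9 to 69.8 TPM. Pdlim3 was 55.3 TPM in VCP TG sham 3, against 8.40 to 12.4 TPM, and Mypn was 13.5 TPM in VCP TG sham 4, against 38.2 to 43.2 TPM.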

How the results depend on the processing

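In the 2-week table the number of genes of the list called in WT 2 weeks TAC against WT sham was 0 with all groups, 6 in the WT libraries alone, 9 with a weight for each library and 7 without the libraries rich in Myl7, and 0 to 5 when 1 library was left out. The share of all genes called was 0%, 7.03%, 16.5%, 8.22% and, for the fit with 5 (without VCP TG sham 4), 5.93%. In VCP TG 2 weeks TAC against VCP TG sham it was 2 with weights (7.66% of all genes), 1 without the libraries rich in Myl7 (4.92%) and 0 to 1 with 1 library left out (0.187% without VCP TG sham 4). In VCP TG against WT at 2 weeks TAC it was 5 with weights (16.8% of all genes) and 1 without the libraries rich in Myl7 (4.38%), and the median was -0.24 after rescaling to nuclear protein-coding genes. In the 8 WT libraries alone it was 10 after that rescaling (12.3% of all genes), 0 with no filter (0.549%), 3 without the TAC library rich in Myl7 (3.14%), and 0 to 9 with 1 library left out (15.9% for the fit with 9, without WT sham 4). The cause of these moves was not tested.

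With the replicate number as a block, 0 genes of the list passed in every comparison of the fits with all groups, and 2 in the 8 WT libraries alone (4.81% of all genes). Medians under the block were -0.41 for WT TAC, -0.39 for VCP TG TAC, -0.22 after sham surgery, 0.15 at 2 weeks TAC, 0.19 for the difference between genotypes and -0.12 at 5 weeks TAC.

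Medians of the list below 0 turned above it in some fits. For VCP TG TAC the median was 0.016 without the library labelled VCP TG sham 1 and 0.05 without VCP TG sham 3. After sham surgery it was 0.13 without VCP TG sham 4 and 0.11 without the libraries rich in Myl7, and 0.10 with a weight for each library. At 5 weeks TAC it was 0.0091 without VCP TG 5 weeks TAC 1, 0.02 without WT 5 weeks TAC 1 and 0.07 without the libraries whose Vcp goes against the label. After sham surgery Ldb3 and Tpm1 turned to 0.0028 each without the libraries rich in Myl7, and Ldb3 to 0.013 without VCP TG sham 4 (-0.65 to 0.013 with 1 library left out). Of the other fold changes of named genes over all alternatives, 889 kept direction and call, 34 gained the call and 53 lost it. Many of the 889 could not turn. Leaving out a library of a group not compared leaves the fold change as it was. At 5 weeks no library was rich in Myl7, so the fit without such libraries repeats the main one. The 889 are thus no measure of stability. All 53 losses were among the calls in the 8 WT libraries alone, as no other main fit called a gene of the list. Those calls held in 8 of 19 alternatives for Tcap and for Tpm1, and in 9 for Ldb3. They held in 11 for Mybpc3 and for Palld, and in 14 for Obsl1. Leaving out the library labelled WT 2 weeks TAC 1 and leaving out the TAC library rich in Myl7 are the same fit. Its calls and losses are counted under both names. That fit called Obsl1 and Palld, and did not call Tcap, Mybpc3, Ldb3 or Tpm1. No count test was run, since no counts were at hand, and depth limits could not be given.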
